A study of Homo sapiens with 7 samples.

Results

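A set of 8 genes known as vitamin D targets in monocytes were examined for binding of the vitamin D receptor (VDR) in THP-1 cells: CLMN, SERPINA1, LRP5, SLC37A2, THEMIS2, DUSP10, FUCA1 and G0S2. The sites counted for a gene overlap its body or the 50 kb on either side, 64 of the 28993 sites in the stretch of the genome that all 6 peak lists cover. The windows differ in width, and 5 of these sites lay at CLMN, 2 at SERPINA1, 2 at LRP5, 11 at SLC37A2, 6 at THEMIS2, 23 at DUSP10, 4 at FUCA1 and 11 at G0S2. THP-1 is a human line from an acute monocytic leukaemia. The cells received 100 nM 1α,25-dihydroxyvitamin D3 (1,25D) for 8 h (n = 3 libraries) or the solvent, 0.1% ethanol (EtOH), for the same time (n = 3), and chromatin was recovered with a VDR antibody by ChIPmentation, a form of chromatin immunoprecipitation in which adapters are put in by a transposase while the chromatin is still on the beads. All groups are the same line in the same medium with fetal calf serum, and no label ties the replicates to separate cultures, so the p-values measure only the spread between these libraries, which may be technical.

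VDR is a nuclear receptor that pairs with a retinoid X receptor and binds a direct repeat of hexamers such as AGGTCA, spaced by 3 bases. Binding of 1,25D changes its shape so that coactivators replace corepressors, and target genes are commonly served by several sites, many of them far from the gene start. In monocytes the hormone is known for switching on genes of antimicrobial defence and metabolism. The 8 genes here include 3 proteins of metabolism (SLC37A2, G0S2 and FUCA1), 3 signalling proteins (THEMIS2, DUSP10 and LRP5), the membrane protein CLMN and the secreted inhibitor SERPINA1. The peak lists measure binding, and no expression of these genes was measured in them.

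Of the 8 genes, 6 had at least 1 site that was called in every 1,25D library, and LRP5 and SERPINA1 had none. Such sites numbered 11 of 64 (17.2%), against 4.20% of all 28993 sites. Among them, 4 sites (6.25%), at CLMN and DUSP10, were called in no EtOH library, against 1.70% of all sites. Another 3 sites (4.69%), at SLC37A2, G0S2 and THEMIS2, were called in all 6 libraries, against 1.03% of all sites. The remaining 4 (6.25%) had a peak in 1 or 2 EtOH libraries, against 1.47% of all sites. The opposite pattern, every EtOH library and not 1 of the 1,25D libraries, occurred at 0 of the 64 sites and at 11 of the 28993 (0.0379%). These shares are descriptions with no test. Among consecutive tiles of 119 kb, 12.2% held a site called in every 1,25D library, and so did 5 of the 6 windows of similar width (101 to 141 kb). Among tiles of 237 kb the share was 22.0%, and 1 of the 2 windows of that width, the CLMN window, held such a site. The tiles were laid end to end without regard to genes, so they are not a gene-matched comparison. The 8 genes were chosen as known vitamin D targets and with earlier results of these data known. The higher shares in their windows are therefore not read as a result about the genes.

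**Figure D1:**
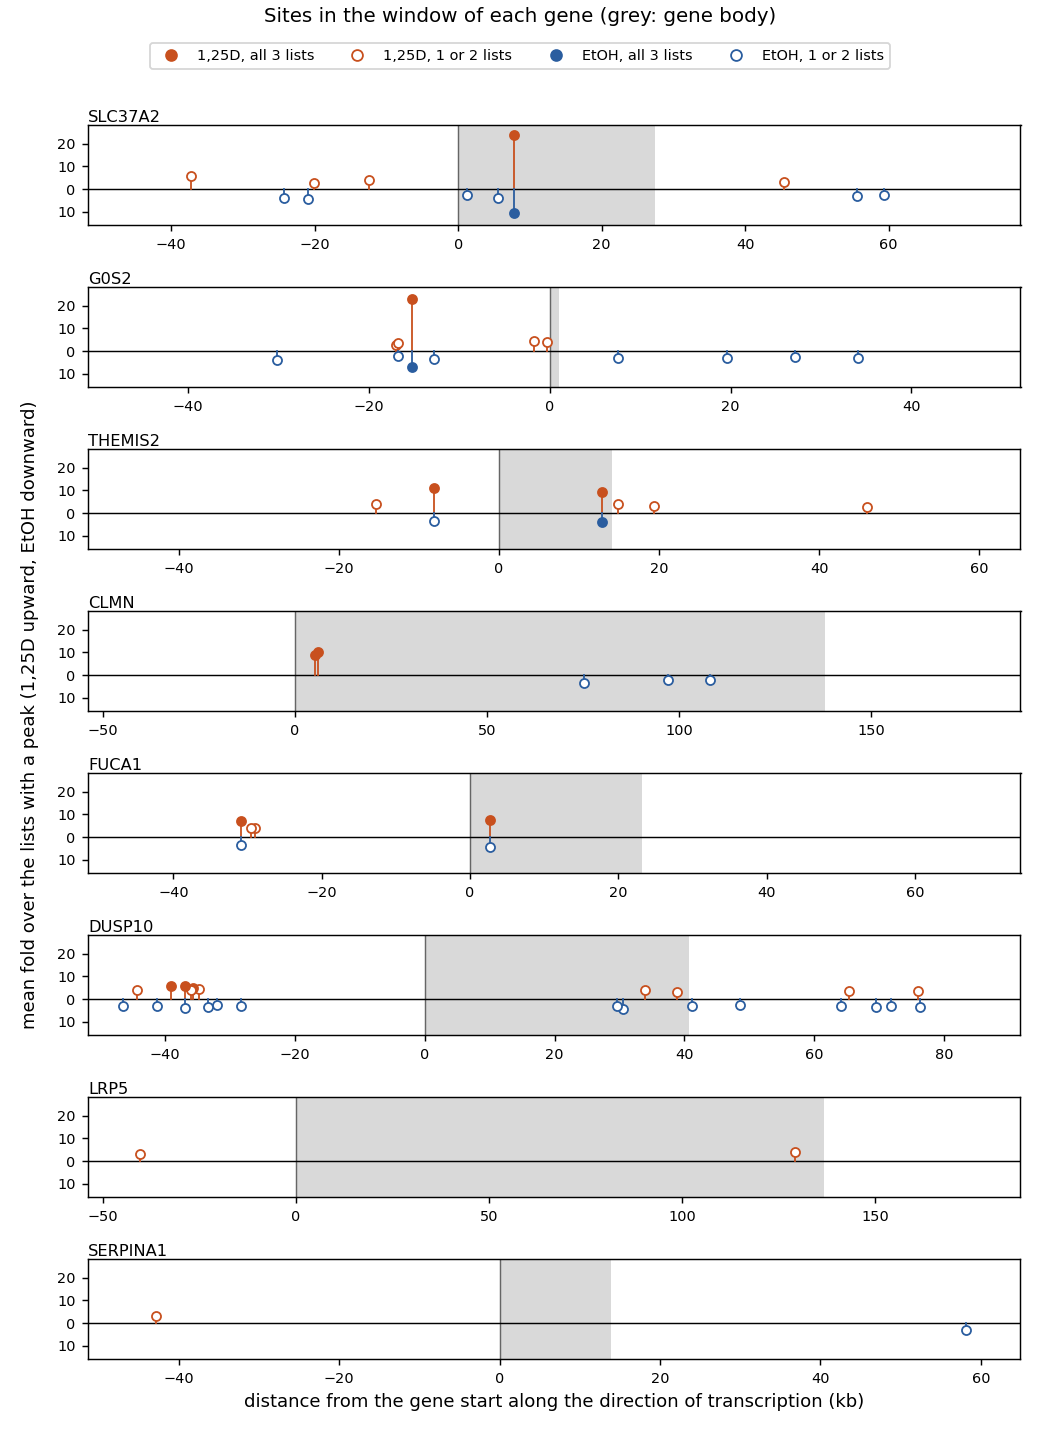
Sites in the windows of the 8 genes, by distance from the gene start in kb along the direction of transcription (grey, gene body), with the mean of the authors' fold over the lists that have a peak, 1,25D upward and EtOH downward. Filled points mark sites called in all 3 lists of a treatment and open points sites in 1 or 2 lists; the 11 filled 1,25D points lie inside or upstream of the gene body.

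The sites called in every 1,25D library lay inside the gene body (5 sites) or upstream of it (6 sites), and none of the 11 lay downstream, as the map of sites by distance shows. Over all 64 sites the numbers were 15 inside, 30 upstream and 19 downstream. Within 10 kb of the gene start lay 5 of the 11, beside 10 of all 64, and within 1 kb none, beside 1 of the 64. Their mean fold in the 1,25D lists ran from 4.87 to 24.0 with a median of 8.68, beside a median of 5.64 over the 1217 sites of that kind in the whole stretch. Of the 64 sites, 47 were called in a single library: 19 in a 1,25D library with folds of 2.65 to 5.74, and 28 in an EtOH library with folds of 2.30 to 4.58, of which 16 were in EtOH replicate 2. They made up 29.7% (1,25D) and 43.8% (EtOH) of the 64, beside 24.4% and 65.4% of all sites. One more site, at G0S2, had a peak in 1 library of each treatment.

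Counting peaks of any fold, 23, 21 and 19 peaks were listed in the 8 windows in 1,25D replicates 1 to 3, against 15, 25 and 8 in EtOH replicates 1 to 3. The treatments overlapped in this number, and EtOH replicate 2 had the most. At a fold of at least 5, the 1,25D libraries had 10, 11 and 9 peaks in the windows, against 2 in each EtOH library. They made up 47.7 ± 4.46% of the 1,25D peaks in the windows and 15.4 ± 8.69% of the EtOH peaks (mean ± SD, n = 3 each). Over the whole stretch they made up 19.1 ± 4.13% of the 1,25D peaks and 3.76 ± 1.46% of the EtOH peaks. In that stretch the lists held 3647 to 5203 peaks per 1,25D library and 5251 to 11317 per EtOH library. Both replicates 1 were listed to a lower highest p (0.00433 for 1,25D and 0.00431 for EtOH) than the other libraries (0.00978 to 0.00997). The counts of 11 and 3 sites above were the same with a highest p of 0.00431 for all lists.

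Windows of 4 of the 8 genes had more peaks of fold 5 or more in every 1,25D library than in any EtOH library. These were CLMN, FUCA1, THEMIS2 and DUSP10. The same held for 3.29% of the narrower and 6.21% of the wider tiles. Those tiles were laid without regard to genes, and only 12.2% and 22.0% of them held a site called in every 1,25D library. The genes were chosen as known targets, so the higher share in their windows is not read as a result. CLMN and FUCA1 had 2 peaks of fold 5 or more in each 1,25D library and 0 in each EtOH library. THEMIS2 had 2, 2 and 1 in 1,25D replicates 1 to 3 and 0 in each EtOH library, and DUSP10 had 1, 3 and 1 against 0. Each of these comparisons gave a two-sided exact permutation p = 0.1, the smallest that 3 against 3 libraries allow. SLC37A2 had 2, 1 and 1 such peaks in the 1,25D libraries and 1 in each EtOH library, and G0S2 had 1, 1 and 2 against 1 in each (exact permutation p = 1 for both). LRP5 and SERPINA1 had 0 in every library. With peaks of fold 10 or more, the difference of 1,25D minus EtOH was 1 at G0S2 and 1.33 at THEMIS2 (exact permutation p = 0.1 for both). At that fold the difference at CLMN fell to 0.667 (exact permutation p = 0.4) and that at FUCA1 and DUSP10 to 0. Without 1,25D replicate 2, the difference at DUSP10 was 1 peak, against 1.67 with all libraries.

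**Figure D2:**
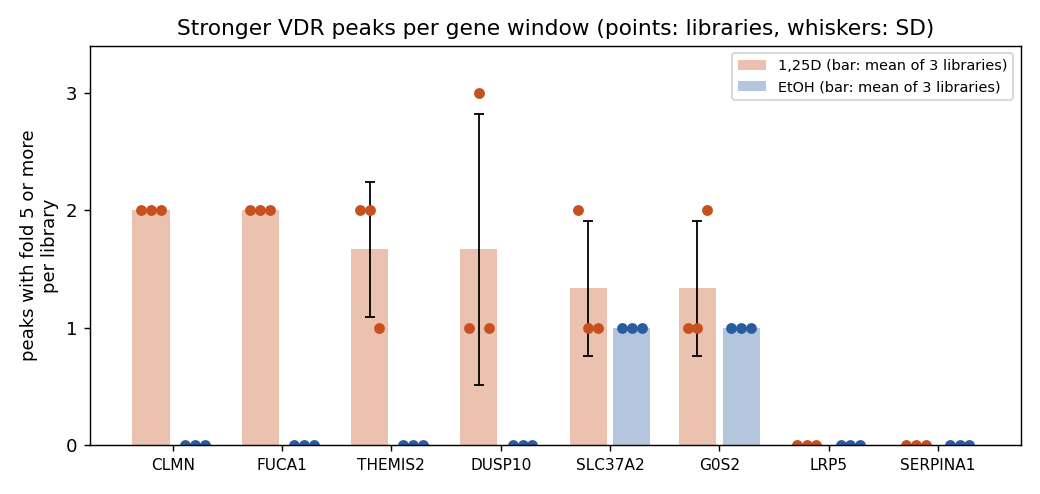
Number of peaks with a fold of 5 or more per library in each gene window; bars are means of 3 libraries, whiskers are SD and points are libraries, with 1,25D left of EtOH. CLMN, FUCA1, THEMIS2 and DUSP10 had 0 such peaks in every EtOH library, SLC37A2 and G0S2 had 1 in each, and LRP5 and SERPINA1 had 0 in all 6 libraries.

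Promoters were looked at next, because 1 recurrent site lay within 1 kb of a gene start, at G0S2. The RefSeq promoter table of GRCh38.p14, which gives the 250 bases before and the 50 after each start, held 8 promoters of 6 of the genes, and CLMN and SLC37A2 have no entry. Hexamers were searched on both strands. Of all promoters in the table, 13.8% held AGGTCA. The variant GGGTCA was in 14.1% of them, the variant AGTTCA was in 10.4% and the variant GGTTCA was in 8.62%. At least 1 of these hexamers was in 38.6% of all promoters and in 3 of the 8, and a single hexamer can be part of other motifs. A direct repeat of any of these hexamers spaced by 3 bases (DR3) was in 26 of the 35116 promoters (0.0740%) and in 0 of the 8. Shown first is the promoter of G0S2, which had a recurrent peak nearby and no hexamer, and then the 3 promoters that hold hexamers, which are in capitals as read on the strand of the gene. No recurrent peak lay within 1 kb of the start of DUSP10 or SERPINA1. Each runs 5′ to 3′, and the G0S2 promoter is at chr1:209675162-209675461 on the plus strand, the DUSP10 promoter at chr1:221736851-221737150 on the minus strand, and the SERPINA1 promoters at chr14:94390586-94390885 and chr14:94388553-94388852 on the minus strand.
G0S2: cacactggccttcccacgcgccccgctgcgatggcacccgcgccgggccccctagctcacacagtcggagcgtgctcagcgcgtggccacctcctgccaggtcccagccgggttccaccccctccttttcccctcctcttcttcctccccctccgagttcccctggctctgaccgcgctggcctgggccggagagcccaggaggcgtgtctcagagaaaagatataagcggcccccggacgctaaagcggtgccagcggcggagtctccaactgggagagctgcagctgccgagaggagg
DUSP10, downstream start: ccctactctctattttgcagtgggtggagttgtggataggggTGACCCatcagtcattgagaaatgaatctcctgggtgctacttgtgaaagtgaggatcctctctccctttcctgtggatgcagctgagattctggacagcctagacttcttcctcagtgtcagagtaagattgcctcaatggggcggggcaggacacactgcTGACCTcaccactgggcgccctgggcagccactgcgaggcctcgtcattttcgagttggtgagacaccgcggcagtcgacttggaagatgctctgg
SERPINA1, upstream start: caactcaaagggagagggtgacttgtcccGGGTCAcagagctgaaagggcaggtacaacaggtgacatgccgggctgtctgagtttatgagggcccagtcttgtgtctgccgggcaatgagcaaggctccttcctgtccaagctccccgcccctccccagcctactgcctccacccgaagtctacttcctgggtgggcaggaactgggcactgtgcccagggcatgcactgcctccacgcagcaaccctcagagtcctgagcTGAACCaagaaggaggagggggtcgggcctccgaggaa
SERPINA1, downstream start: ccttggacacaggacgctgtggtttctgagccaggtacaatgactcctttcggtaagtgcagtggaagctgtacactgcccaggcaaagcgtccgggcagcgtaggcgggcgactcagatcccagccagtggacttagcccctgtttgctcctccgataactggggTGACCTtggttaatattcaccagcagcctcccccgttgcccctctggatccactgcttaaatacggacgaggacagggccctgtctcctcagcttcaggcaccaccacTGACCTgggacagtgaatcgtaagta

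SLC37A2, a sugar-phosphate exchanger of the endoplasmic reticulum that macrophages express, had the strongest site of the 8 genes by mean 1,25D fold. It lay inside the gene body on chromosome 11, at chr11:124940274-124941192, 7.26 kb from the gene start. Its fold was 24.7, 23.2 and 24.1 in 1,25D replicates 1 to 3, against 10.2, 11.3 and 10.1 in EtOH replicates 1 to 3. The treatments did not overlap and the libraries of each lay close together, with means of 24.0 ± 0.720 and 10.5 ± 0.644 (SD, n = 3 each), a ratio of 2.28. The strongest peak there was 679, 842 and 728 bp long in the 1,25D lists, against 342, 292 and 450 bp in the EtOH lists. Within its own list the site stood in nearly the same place under both treatments. It ranked 31, 23 and 31 among the 5203, 3647 and 4424 peaks of the 1,25D lists, and 35, 36 and 35 among the 5251, 11317 and 5722 peaks of the EtOH lists. The other 10 sites of the window were each in a single library, 4 of 1,25D with folds of 2.73 to 5.74 and 6 of EtOH with folds of 2.71 to 4.19. The next site called in every 1,25D library was 1082 kb from the gene body.

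G0S2 encodes a small protein that inhibits the lipase ATGL and so the breakdown of stored fat. Its main site lay upstream on chromosome 1, at chr1:209832948-209833845, 14.8 kb from the gene start, on the side of LAMB3, the next protein-coding gene in RefSeq order. The distance of this main site from LAMB3 was not measured. The fold was 26.9, 20.7 and 21.3 in 1,25D replicates 1 to 3, against 9.19, 5.30 and 6.91 in EtOH replicates 1 to 3. Every 1,25D library was above every EtOH library, and the mean folds were 23.0 ± 3.44 and 7.14 ± 1.96 (SD, n = 3 each), a ratio of 3.22. In EtOH replicate 2 the site consisted of a peak of 262 bp and a weaker one of 190 bp with a fold of 3.57, while each 1,25D library had 1 peak of 661 to 858 bp.

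A weaker site lay just before the G0S2 start, at chr1:209848076-209848567, between -594 and -103 bp relative to the gene start. It had a fold of 2.53 in 1,25D replicate 2 and 5.76 in 1,25D replicate 3, and no peak in 1,25D replicate 1 or any EtOH list. The gene body is 1066 bp long in hg19 as used here and 979 bp in the promoter table's build, so this peak was not placed on the letters printed above. On the far side of the gene, 55.9 kb from it and so just outside the window, a site at chr1:209905590-209906952 was called in all 6 libraries, with folds of 10.1 to 12.2 under 1,25D and 4.26 to 6.98 under EtOH. Inside the windows, a DUSP10 site 38.7 kb from the gene body was the farthest of the 11. Of the other G0S2 sites, 2 were in single 1,25D libraries with folds of 2.73 and 4.48, 6 were in single EtOH libraries with folds of 2.67 to 4.06, and 1 was in a library of each treatment.

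FUCA1, the lysosomal fucosidase that removes fucose from glycoproteins and glycolipids, had a pair of sites called in every 1,25D library. The first lay inside the gene body on chromosome 1, at chr1:24191884-24192335, 2.49 kb from the start, the closest of the 11. Its fold was 6.90, 7.94 and 7.31 in 1,25D replicates 1 to 3, against 4.19 in EtOH replicate 1 and no peak in the other EtOH lists. The second lay 30.6 kb upstream, at chr1:24225446-24225828, on the side of CNR2, the cannabinoid receptor gene that is next in RefSeq order. With no hg19 annotation used, whether this second site lies inside CNR2 was not determined. The fold of the second site was 7.21, 6.77 and 6.68 in the 1,25D lists, against 3.57 in EtOH replicate 1 and 3.71 in EtOH replicate 3. The 1,25D folds of both sites lay close together (SD 0.528 and 0.286) and above every EtOH fold listed. A weaker site 28.8 kb upstream was in 1,25D replicates 2 and 3 with folds of 4.12 and 3.45, and the last one was in 1,25D replicate 2 with 3.79. FUCA1 had no site called in an EtOH library alone.

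Among the signalling genes is THEMIS2, a scaffold protein in receptor signalling of myeloid and B cells. On either side of its start it had a site called in every 1,25D library. The upstream site, at chr1:28190593-28191215, was 7.84 kb before the start. Its fold was 8.49, 12.4 and 12.6 in 1,25D replicates 1 to 3, against 3.46 in EtOH replicate 2 and no peak in the other EtOH lists. The other site, at chr1:28211107-28212659, lay near the end of the gene body and was the longest of the 11, at 1552 bp. Its fold was 10.6, 12.1 and 4.74 in 1,25D replicates 1 to 3, against 3.57, 4.13 and 4.05 in EtOH replicates 1 to 3. Here 1,25D replicate 3 stood apart from the other 1,25D libraries and close to the EtOH libraries, although its peak was 1416 bp long, beside 1395 and 1552 bp in 1,25D replicates 1 and 2 and 148 to 772 bp in the EtOH lists. The ratio of the mean folds was 2.34, and 2.90 without 1,25D replicate 3. The remaining 4 sites of the window were in single 1,25D libraries, with folds of 2.65 to 4.19, and none was in a single EtOH library.

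DUSP10, a phosphatase that inactivates the stress kinases p38 and JNK, had its recurrent 1,25D sites grouped far upstream. Beginning 34.6 kb before the start, 4 sites within 4.81 kb were called in at least 2 1,25D libraries, 3 of them in all. The strongest of these by mean fold, at chr1:221954256-221954901, had folds of 4.68, 8.60 and 4.46 in 1,25D replicates 1 to 3 and no EtOH peak. The site at chr1:221950906-221951379 had 3.61, 6.53 and 4.47 and no EtOH peak. Between them, the site at chr1:221952037-221952899 had 5.39, 6.66 and 5.53, against a fold of 3.92 in EtOH replicate 2 alone. These are the strongest peaks of each list, and the EtOH peak overlapped weaker 1,25D peaks of fold 2.89 in replicate 1 and 2.81 in replicate 3, both below it. The mean fold of 5.91 at chr1:221954256-221954901 exceeded the 5.86 at this site only through 1,25D replicate 2. In 1,25D replicates 1 and 3 this site had the higher fold. The site nearest to the gene, at chr1:221950091-221950417, had 3.92 and 4.67 in 1,25D replicates 1 and 2. At all 4 sites 1,25D replicate 2 had the highest fold, and its peak at the site with an EtOH peak was a single one of 862 bp where the other 1,25D lists had 2 shorter ones each.

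The DUSP10 window held the most sites of the 8, 23, of which 12 were in a single EtOH library (8 in EtOH replicate 2) and 6 in a single 1,25D library. It also held the only site of the 64 that was called in 2 EtOH libraries and in no 1,25D library, a pattern of 1.01% of all sites. That site, at chr1:221845696-221846235, lay downstream of the gene, 69.3 kb from its start, with folds of 4.14 in EtOH replicate 1 and 2.75 in EtOH replicate 2. No recurrent site lay inside the DUSP10 gene body.

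LRP5, a co-receptor for Wnt ligands, had no site called in every 1,25D library. Its window of 237 kb held 2 sites. One, at chr11:68209154-68209446 near the end of the gene body and 129 kb from the start, had a fold of 2.96 in 1,25D replicate 1 and 4.81 in 1,25D replicate 3. The other was in 1,25D replicate 2 alone, with a fold of 2.94. No EtOH library had a peak in the window. The nearest site called in every 1,25D library was 1101 kb from the gene body. Where a list has no peak, binding below the calling threshold cannot be told from no binding.

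CLMN encodes calmin, a membrane-anchored protein with actin-binding calponin homology domains. It had the strongest sites of the 8 genes with no EtOH peak. They formed a pair inside the gene body, separated by 142 bp and 4.83 to 6.31 kb from the start. The site at chr14:95779936-95780580 had folds of 12.7, 8.91 and 8.94 in 1,25D replicates 1 to 3, and the site at chr14:95780722-95781418 had 7.82, 7.58 and 10.6. No EtOH library had a peak at either. The mean folds of 10.2 ± 2.20 and 8.68 ± 1.70 (SD, n = 3 each) compare with a median of 4.86 over the 492 sites of the whole stretch that were called in every 1,25D and no EtOH library. In 1,25D replicate 1 the site farther from the start was the stronger, and in 1,25D replicate 3 the nearer one. The authors' p-values of these peaks ran from 9.92e-27 to 4.88e-14. The other 3 sites of the window were in single EtOH libraries with folds of 2.30 to 3.36, and the next site called in every 1,25D library was 781 kb from the gene body.

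SERPINA1, which encodes the secreted protease inhibitor alpha-1 antitrypsin, had no recurrent site, and 2 single-library sites in its window. A single peak of fold 3.01 in 1,25D replicate 1 lay upstream, at chr14:94899758-94899978, and a single peak of fold 3.15 in EtOH replicate 2 lay downstream, at chr14:94798754-94798902. No list had a peak in the gene body. The nearest site called in every 1,25D library was 278 kb away, at chr14:94564624-94565419, and it was strong, with folds of 26.3, 24.8 and 30.2 in 1,25D replicates 1 to 3, against 7.57 to 15.1 in the EtOH libraries. Whether it serves SERPINA1 was not tested.

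**Figure D3:**
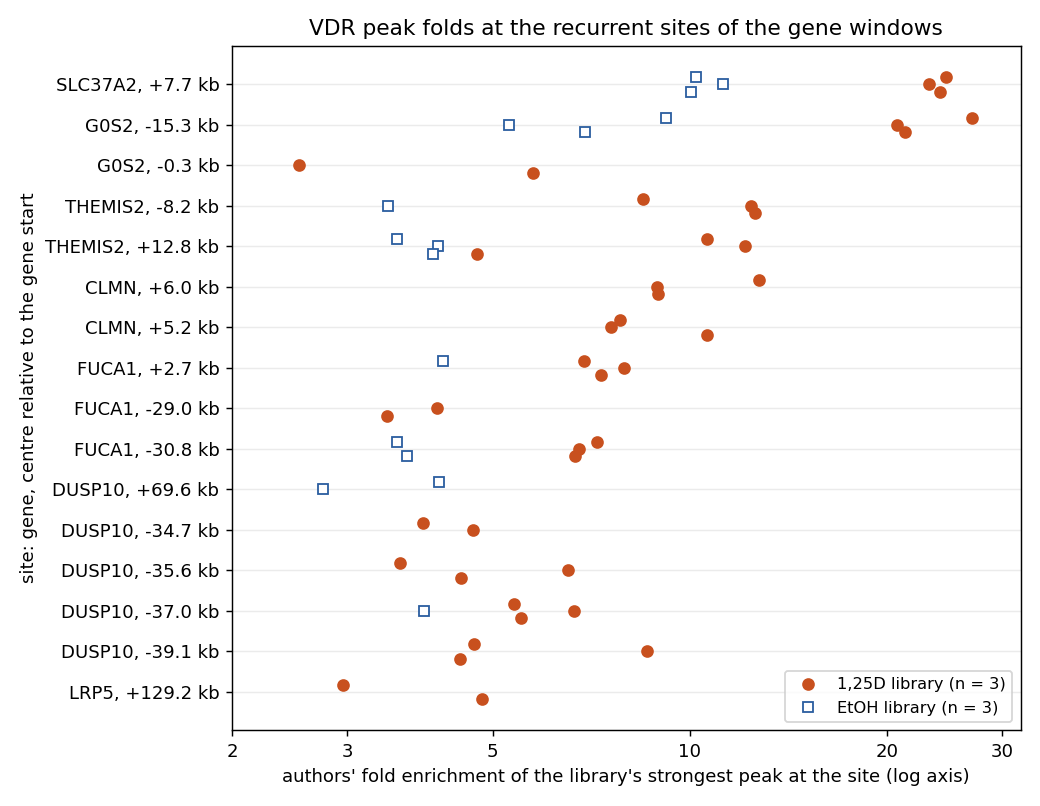
The authors' fold of each library's strongest peak, on a log axis, at the 16 sites called in at least 2 libraries of a treatment, labelled by gene and distance of the site's centre from the gene start; circles are 1,25D libraries and squares EtOH libraries, and a library with no peak has no point. Where both treatments have points, every EtOH point lies left of every 1,25D point of the same site, and the folds run highest at SLC37A2 and G0S2.

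Seen across the genes, at each of the 7 sites that had both every 1,25D library and at least 1 EtOH library, the strongest peak of each EtOH library was below the strongest peak of every 1,25D library, beside 63.3% of the 725 such sites of the whole stretch. The ratio of mean folds was 1.49 to 3.22 with a median of 2.28 at the 7 sites, beside a median of 1.55 over the 725, so a ratio above 1 was the usual case in these lists. These folds come from lists that were processed separately, and the ratios were not tested. Of the 17 EtOH peaks at these sites, 16 lay wholly inside a 1,25D peak, and the exception was a weaker peak of EtOH replicate 2 at SLC37A2. Sites were merged from overlapping peaks and the EtOH peaks here were the shorter ones, so this count is not read as a result. The share over the 725 sites was not counted. The sites also differed in how well the 1,25D libraries agreed: the SD was 0.720 on a mean of 24.0 at SLC37A2, and 3.91 on a mean of 9.16 at the THEMIS2 site inside the gene.

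The 3 sites called in all 6 libraries were then ranked by fold within each list over the 298 sites of that kind, from 1 for the highest. SLC37A2 ranked 30, 22 and 29 in 1,25D replicates 1 to 3, against 35, 36 and 35 in EtOH replicates 1 to 3. G0S2 ranked 21, 35 and 41 in the 1,25D lists, against 45, 162 and 91 in the EtOH lists. At both, every 1,25D rank was higher in the order than every EtOH rank, beside 20.8% of the 298 sites. At THEMIS2 the ranks were 133, 109 and 269 in the 1,25D lists, against 265, 241 and 234 in the EtOH lists, and overlapped through 1,25D replicate 3. None of the 3 ranked lower in every 1,25D list, beside 24.2% of all such sites. The gap at SLC37A2 was 5 places between the closest libraries and that at G0S2 was 4, so both separations are narrow.

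**Figure D4:**
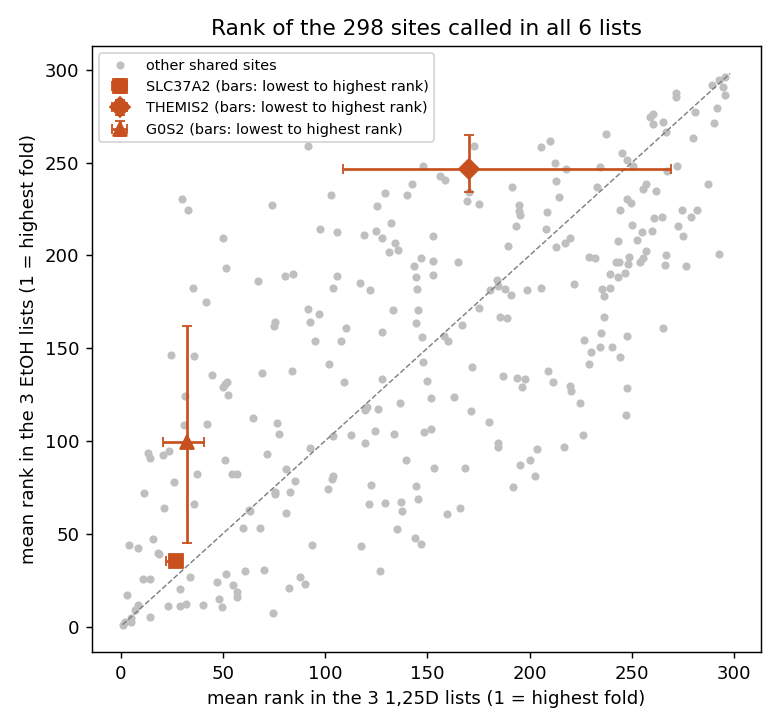
Mean rank by fold of the 298 sites called in all 6 libraries, in the 1,25D lists (horizontal) and the EtOH lists (vertical), with 1 for the highest fold. Bars at the SLC37A2, THEMIS2 and G0S2 sites run from the lowest to the highest rank of the 3 libraries. G0S2 lies above the dashed line of equal ranks, at mean ranks of 32.3 and 99.3, and SLC37A2 close to it, at 27 and 35.3. THEMIS2 also lies above the line, at 170 and 247, but its ranks overlapped between the treatments.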

How the data were processed

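VDR peaks were listed for 6 libraries, 3 per treatment, and the input library, for which no list is in hand, was not analysed here. The submitters' processing notes name Bowtie 1.1, MACS2 and the build hg19 (GRCh37). For the MACS2 version, the control, the threshold and the removal of duplicates, nothing is given in the sources used here. Each list gives a fold enrichment per peak, a ratio over background computed by the authors' peak caller, per the file headers, and a p-value from the authors' caller. Both are the peak's own values. Folds were used inside their own list, to order or select its peaks, and folds averaged over lists are descriptions. No read counts are given, so depth is unknown and no interval was computed. Whether starts count from 0 or 1 is not stated.

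Of the lists, 3 stop in mid-line, and their incomplete last line was left out. Everything here lies in the stretch that all 6 lists cover, which in their order of chromosomes ends on chromosome 16 at 50293713. That order is not numeric: the stretch, cut below into 8144 tiles of 119 kb, is much shorter than chromosomes 1 to 16 together. Shares over all sites describe this stretch and not the whole genome. Peaks of all lists that shared at least 1 bp were merged into a site, whose fold in a list is the highest of its peaks there. A site belongs to a gene where it overlaps the gene body plus 50 kb each side, and no site fell in more than 1 window. For comparison, the same stretch was cut into consecutive tiles of 119 kb (8144 tiles) and 237 kb (4072 tiles), the median widths of the 6 narrower and the 2 wider windows. The number of peaks with a fold of 5 or more per window was compared between treatments by exact permutation, two-sided, with 20 ways to assign the libraries and a smallest p of 0.1. No p was adjusted, since none could pass 0.05. Python 3.11.15 with pandas 2.3.3 and numpy 2.4.6 was used, and the merging, window and permutation steps were tested on simulated lists. No line was shared between lists (0 identical lines), and columns of other samples numbered 0.

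The gene bodies are given in hg19. The direction of transcription came from the RefSeq promoter table of GRCh38.p14 for 6 genes and, for CLMN and SLC37A2, which have no entry there, from general knowledge. Gene order and promoter sequences are from RefSeq in that build, and no coordinate was converted. With no hg19 annotation used, exons and introns were not assigned, the sequences of the peaks were not read, and other vitamin D target genes were not counted. The genes, the lists and the tests were chosen with earlier results of these data known. All 8 genes are named, and the sites named are those called in at least 2 lists of a treatment, plus the single-list sites of LRP5 and SERPINA1, the nearest sites outside some windows and the ranges of the rest.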

Additional observations from a re-analysis of the deposited data

How the results depend on the processing

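With all 6 libraries, 4 sites were called in every 1,25D and no EtOH list, 3 in all 6, 11 in every 1,25D list over 6 gene windows, and 2 shared sites ranked higher in every 1,25D list. Within the gene body alone the numbers were 2 sites in no EtOH list, 5 in every 1,25D list and 1 ranked higher, and with 20 kb on either side 2 in no EtOH list and 7 in every 1,25D list. At a fold of at least 10, 1 site was in no EtOH list, 1 in all 6, 2 in every 1,25D list (at G0S2 and SLC37A2, so 2 windows) and 1 ranked higher. Fewer peaks or a smaller window can only lower the count in every 1,25D list. Flanks of 100 kb, a fold of 5 or more, a 50% overlap, site centres and 1 highest p for all lists left these counts within 1.5 times. Leaving out a library gave 4 to 6 sites in no EtOH list, 3 or 4 in all remaining lists, 11 to 13 in every 1,25D list over 6 or 7 windows, 2 or 3 ranked higher, and 0 or 1 in every EtOH and no 1,25D list, the 1 being the DUSP10 site without EtOH replicate 3. A call in every list is easier to meet with fewer lists, so the numbers of called sites could hardly fall here. Without both replicates 1, a setting chosen after the data were seen, 7 sites were in no EtOH list. With the replicates 1 alone, chosen likewise, where 1 list per treatment has to call a site, 18 were in the 1,25D list only, 10 in the EtOH list only, 5 in both, all 5 ranked higher, and 23 in the 1,25D list.

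For the peaks of fold 5 or more per window, 2 of 112 alternatives changed the sign of a difference of 1,25D minus EtOH. With peaks of fold 3 or more it was -0.667 peaks at SLC37A2 and -0.333 at G0S2, against 0.333 at both. At that fold the treatments no longer separated at DUSP10 (exact permutation p = 0.7), THEMIS2 (p = 0.3) and FUCA1 (p = 0.2), leaving only CLMN of the 8 genes at p = 0.1. With the gene body alone the difference at THEMIS2 was 0.667 (exact permutation p = 0.4), against 1.67. With 20 kb on either side the difference was 0 peaks at DUSP10 and 1 at FUCA1, and with 100 kb it was 2 at G0S2 (exact permutation p = 0.1). Same-numbered libraries did not deviate together over the shared sites (correlations of 0.0895, -0.00461 and -0.0235 for replicates 1 to 3). A shift of a whole library cannot show in these correlations, and both replicates 1 shared a lower highest p, so a pairing stays possible. The number was not taken as a pairing in the main comparison, and a replicate block was used as an alternative. With the replicate block the differences were the same, for example 2 peaks at CLMN, and the exact sign-flip p was 0.25, the smallest possible, at the 4 genes with p = 0.1 otherwise. Depth is unknown, so a missing peak may reflect the caller's threshold.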
